A study of Mus musculus with 6 samples.

Results

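The cadherins and protocadherins were taken as every protein-coding gene of the expression table whose symbol was Cdh followed by a number, or began with Pcdh, and 92 of the 54532 genes in the table met that rule. Osteogenic medium with metformin was compared with osteogenic medium alone in MC3T3-E1 cells, a mouse pre-osteoblast line from calvaria that forms bone matrix in culture, with 3 samples in each group. All 6 samples were grown in osteogenic medium for 3 days, and the treated samples also received 0.2 mM metformin, a biguanide used against type 2 diabetes. The study calls the samples of a group biological replicates. All samples come from 1 cell line and none was kept out of osteogenic medium, so the comparison concerns metformin on top of induction.

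Cadherins are calcium-dependent adhesion receptors. Classical cadherins of adjoining cells bind through their outer domains and hold the actin cytoskeleton through catenins, and in the osteoblast lineage Cdh2 (N-cadherin) and Cdh11 (OB-cadherin) are the best known. Protocadherins have related outer domains but lack the catenin-binding tail. The clustered protocadherins lie in neighbouring alpha, beta and gamma arrays on one chromosome, are best known from neurons, and in the alpha and gamma arrays splice a variable first exon to constant exons that all isoforms share. The solo protocadherins of the delta groups are encoded by separate genes and bind regulators of actin assembly.

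Expression was given as FPKM (fragments scaled to gene length and to a factor for each library), so levels of a gene can be compared between samples. Between genes they can be compared only roughly. For 91 of the 92 members the length used was that of all annotated exons, whichever of them were expressed, and alpha and gamma genes share exons. The library factor was proportional to a median-of-ratios size factor in all 6 samples, and not to total reads. Multiplying a value by the gene length returned whole reads, and the libraries held 18399861 to 20652437 reads in osteogenic medium and 19256672 to 22111790 reads with metformin. Groups were compared by limma-trend after a log2(FPKM + 1) transform. The 12681 genes whose FPKM averaged 0.5 or more across the 6 samples were tested, p-values were adjusted over all of them by Benjamini-Hochberg, and a gene is called higher or lower where the adjusted p was under 0.05. Across those genes 13.2% were called higher and 9.28% lower. The deviation of each control from the other controls followed GC content across genes, which are not independent. The Spearman correlation was -0.67 for osteogenic medium replicate 1, 0.41 for replicate 2 and 0.64 for replicate 3. For metformin replicates 1, 2 and 3, each set against the others of its group, it was 0.13, 0.12 and -0.22. Such deviations sum to 0 within a group, so opposite signs are built in and do not by themselves single out 1 library. With a correction for GC content in each sample, 2062 genes were called higher and 2433 lower, in place of 1670 and 1177, so that higher genes made up 45.9% of the calls instead of 58.7%. The osteoblast markers Runx2, Sp7, Alpl, Col1a1, Col1a2, Ibsp, Spp1 and Bglap were all above the expression limit, 2 of the 8 being called higher and 2 lower. Spp1 went from 7703 ± 989 to 2704 ± 23.4 FPKM and Ibsp from 814 ± 150 to 265 ± 4.41 FPKM (limma-trend, adjusted p = 0.000471 and 0.000578). Col1a1 went from 1339 ± 359 to 2487 ± 108 FPKM and Col1a2 from 970 ± 28.3 to 1444 ± 74.0 FPKM (adjusted p = 0.023 and 0.00719). Col1a1 and Col1a2 lost their calls without metformin replicate 1 or 2. The summed FPKM of 5 endothelial markers was at most 0.13 and that of 5 epithelial markers at most 0.078 in any sample. Of 4 skeletal muscle markers, Des was at 1.55 ± 0.338 and 2.27 ± 0.18 FPKM (limma-trend, adjusted p = 0.0771) and the other 3 had no read. Of 4 macrophage markers, Cd68 was lower with metformin, at 2.04 ± 0.0955 and 1.17 ± 0.119 FPKM (limma-trend, adjusted p = 0.0102), Lyz2 was at 17.99 ± 5.53 and 27.2 ± 2.06 FPKM (adjusted p = 0.0771), and Ptprc and Adgre1 reached at most 0.0156 FPKM. The part of these marker levels in the results was not tested.

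Of the 92 genes, 21 passed the expression limit. Metformin raised 7 of these 21, Cdh2, Cdh26, Pcdh18, Pcdhac2, Pcdhga3, Pcdhb5 and Pcdhb9, and lowered 1, Pcdh19, so 33.3% of the tested members were called higher against 13.2% of all tested genes. Cdh26 passed the limit only through the metformin samples, where it was high, and of the other 20 members 6 were called higher. The number called higher ranged from 4 to 11 when samples were left out one at a time, being 4 without metformin replicate 1 or metformin replicate 2 and 11 without osteogenic medium replicate 1. Without any one of the metformin samples no member was called lower, and 2 were called lower without osteogenic medium replicate 1. Calls over all tested genes moved likewise. They were 1670 higher and 1177 lower with all samples, and 2969 and 2590 without osteogenic medium replicate 1. Without metformin replicate 1 they were 938 and 495, and without metformin replicate 2 they were 943 and 518. In 8 members all 3 metformin samples lay above all 3 control samples, and in 3 members all lay below, where the shares of all tested genes that did so were 23.6% and 20.5%. The median log2 fold change of the 21 members was 0.26, beside 0.0053 for all tested genes. A change in these bulk samples cannot be told apart from a change in the number of cells that express a gene.

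**Figure D1:**
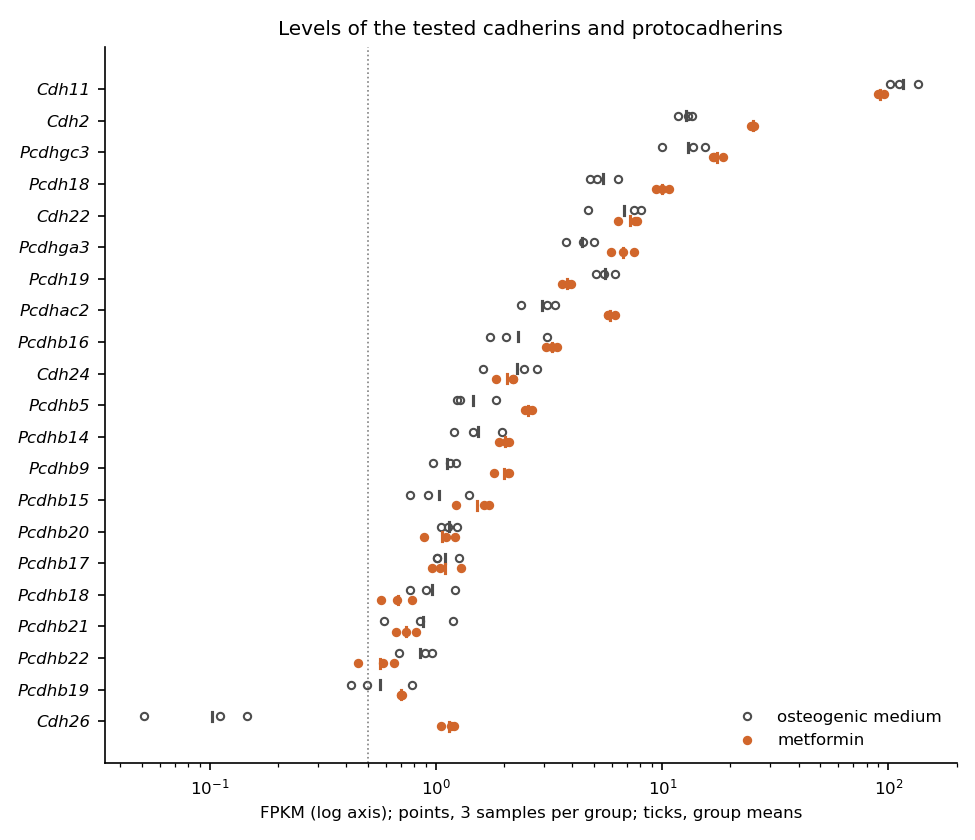
FPKM of the 21 tested members on a log axis, ordered by mean level, with 1 point for each of the 3 samples of a group, a short tick at each group mean and a dotted line at the expression limit of 0.5. Cdh11 stands apart at 89.8 to 135 FPKM in every sample, and the groups are widest apart for Cdh26.

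**Figure D2:**
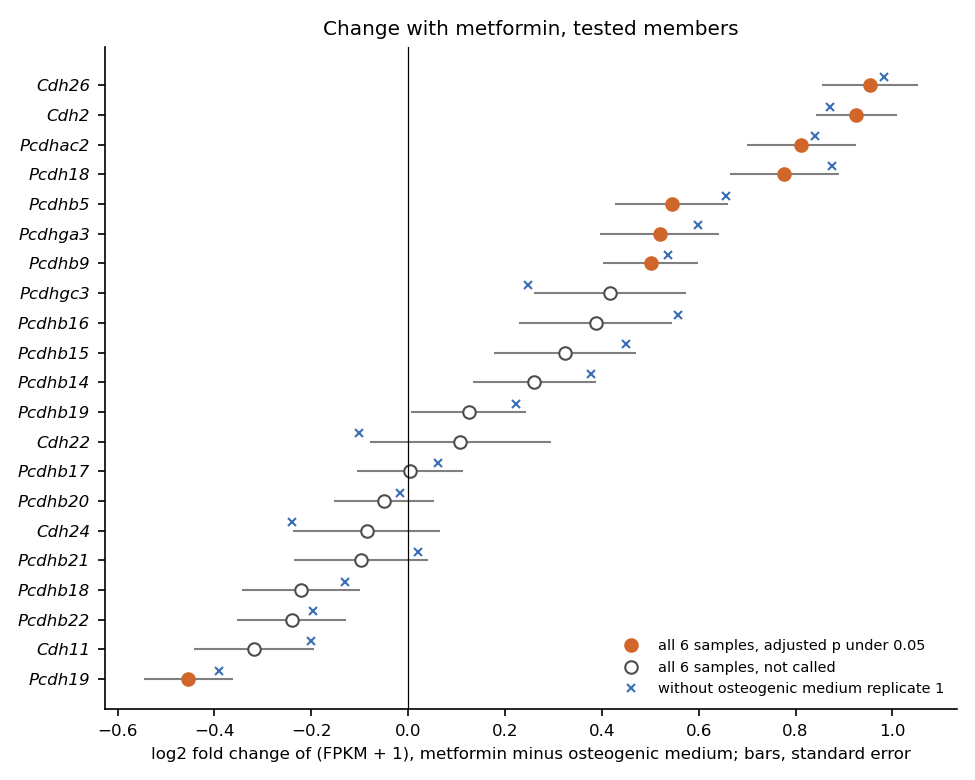
Log2 fold change of (FPKM + 1) for the 21 tested members, metformin minus osteogenic medium, with bars of 1 standard error, filled points for the 8 genes with an adjusted p under 0.05 and crosses for the fit without osteogenic medium replicate 1. Changes run from -0.45 for Pcdh19 to 0.95 for Cdh26, and the crosses of Cdh22 and Pcdhb21 lie on the other side of 0 from their points.

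Among the 5 type I classical cadherins, Cdh2 was the one above the limit. Cdh2 (chr18:16588877-16809246, GRCm38), which encodes N-cadherin, was at 11.7, 13.5 and 13.0 FPKM in osteogenic medium and at 24.7, 25.5 and 24.9 FPKM with metformin. The groups lay far apart, the highest control being lower than each treated sample. The means were 12.7 ± 0.893 and 25.0 ± 0.443 FPKM (SD, n = 3), a log2 fold change of 0.93 with a standard error of 0.083 (limma-trend, adjusted p = 0.00054), and the call held in all 6 fits that left out a sample. The other type I genes were hardly read: Cdh1, the E-cadherin of epithelia, gave 0, 3 and 0 reads in the controls and 2, 3 and 1 reads with metformin. Cdh3, the P-cadherin gene, gave 0, 8 and 7 reads against 10, 1 and 5, and Cdh15, the M-cadherin of muscle, had no read in any sample. The limit for a count of 0 is 3 reads in a library, and these limits cover counting error only.

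The 13 type II classical cadherins held the most abundant gene of the family, with 3 above the limit and 0 called by limma-trend or by voom, and 1, Cdh11, at an unadjusted p under 0.05. Cdh11 (chr8:102632095-102785642, minus strand), the OB-cadherin gene, was at 135, 111 and 101 FPKM in osteogenic medium and at 89.8, 95.6 and 91.0 FPKM with metformin, so each treated sample lay below each control, with osteogenic medium replicate 1 highest. The means were 116 ± 17.6 and 92.1 ± 3.05 FPKM (SD, n = 3), and the log2 fold change of -0.32 (standard error 0.12) did not pass (limma-trend, adjusted p = 0.116). Without osteogenic medium replicate 1 it was -0.20 with an adjusted p of 0.0454, and with the GC correction it was -0.38 with an adjusted p of 0.0085. Stretches of 589 to 990 bases of its longest transcript are 95.1% to 96.3% identical to 7 other genes, in a gene of 8904 bases, and how reads there were assigned is not given in the sources used here.

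Cdh22 and Cdh24, type II cadherins with less known of their role, showed no call. Cdh22 (chr2:165111507-165234853) was at 4.67, 7.51 and 8.05 FPKM in osteogenic medium and at 7.54, 7.71 and 6.35 FPKM with metformin, with osteogenic medium replicate 1 below the other 5 samples. Its log2 fold change of 0.11 ± 0.19 (SE; limma-trend, adjusted p = 0.723) became -0.10 without that replicate. Cdh24 was at 1.62, 2.45 and 2.79 FPKM against 2.18, 1.83 and 2.18 FPKM, again with osteogenic medium replicate 1 lowest. The log2 fold change of Cdh24 was -0.085 ± 0.15 (SE; limma-trend, adjusted p = 0.73). These are the most GC-rich of the tested members, with 62.7% GC in Cdh22 and 61.2% in Cdh24. Cdh5, the VE-cadherin of endothelium, gave 0, 0 and 2 reads in the controls and 0, 3 and 0 reads with metformin.

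The balance of the 2 osteoblast cadherins differed between the groups. Cdh11 was 11.5, 8.25 and 7.79 times the FPKM of Cdh2 in the controls and 3.64, 3.74 and 3.66 times with metformin, with no overlap, a difference that was not tested separately since both genes enter it. Summed over the 92 genes, FPKM was 203, 179 and 173 in the controls and 189, 197 and 188 with metformin, and these ranges overlapped. Cdh11 made up 62.5 ± 4.04% of that sum in osteogenic medium and 48.2 ± 0.478% with metformin (SD, n = 3). The other 91 genes together went from 68.9 ± 2.18 to 99.2 ± 2.24 FPKM, a ratio of 1.44.

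**Figure D3:**
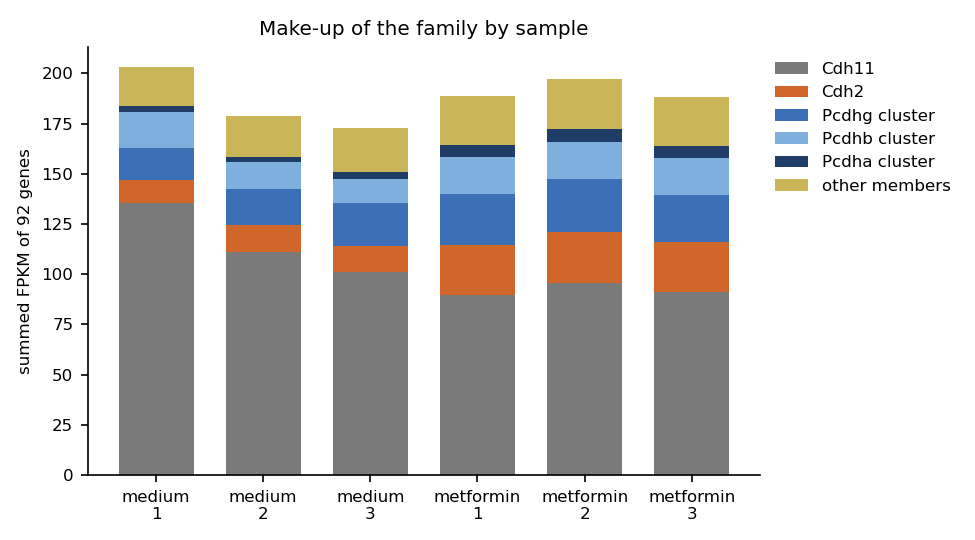
Stacked bars of the summed FPKM of the 92 genes in each of the 6 samples, split into Cdh11, Cdh2, the 3 protocadherin clusters and the other members. The bars are of like height, from 173 to 203 FPKM, while the Cdh11 part is lower and the Cdh2 part higher in each metformin sample than in each control.

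Cdh26 (chr2:178430531-178487366, plus strand), an atypical cadherin known from epithelia, had the largest ratio of the family. Its reads were 8, 7 and 3 in osteogenic medium and 63, 76 and 70 with metformin, so the groups were far apart although the control counts were near the limit of detection. FPKM was 0.145, 0.111 and 0.0507 in the controls and 1.05, 1.16 and 1.19 with metformin, an 11.1-fold difference of the means. On the log2(FPKM + 1) scale, which understates changes of low genes, the difference was 0.95 ± 0.099 (SE; limma-trend, adjusted p = 0.000989). On the recovered reads with voom it was 3.48 ± 0.38 (SE; adjusted p = 0.000473). The limma-trend call held in all 6 fits without a sample. Cdh26 passed the limit of 0.5 FPKM only through the metformin samples, and a filter that asks for at least 10 reads in every sample leaves it untested. Beside it, Krt8, Krt18, Epcam, Cldn4 and Cdh1 together reached at most 0.078 FPKM. Of the 4 other atypical Cdh genes, Cdh13 and Cdh16 had no read, Cdh17 had 1 read in each control and 12, 7 and 2 reads with metformin, and Cdh23, the hair-cell tip-link cadherin, had 3, 18 and 6 reads against 4, 8 and 9.

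Of the 5 delta-2 protocadherins, 2 passed the limit and went in opposite directions. Pcdh18 (chr3:49743296-49757325, minus strand), a solo protocadherin that binds the adaptor Dab1, was at 6.35, 4.81 and 5.16 FPKM in osteogenic medium and at 9.34, 9.92 and 10.7 FPKM with metformin. Every treated sample lay above every control. The means were 5.44 ± 0.808 and 9.98 ± 0.682 FPKM (SD, n = 3), a log2 fold change of 0.78 ± 0.11 (SE; limma-trend, adjusted p = 0.004), held in all 6 fits without a sample. Pcdh19 (chrX:133582860-133688987, minus strand), which acts together with N-cadherin in adhesion and is mutated in a form of epilepsy, was at 6.18, 5.07 and 5.50 FPKM against 3.59, 3.96 and 3.84 FPKM. Here every treated sample lay below every control. Its means of 5.58 ± 0.559 and 3.80 ± 0.185 FPKM (SD, n = 3) gave a log2 fold change of -0.45 ± 0.092 (SE; limma-trend, adjusted p = 0.0148). That call was lost without metformin replicate 1, 2 or 3, at adjusted p values of 0.0805, 0.059 and 0.0658. Both genes were read at like levels in the controls, where Pcdh19 was 0.973, 1.05 and 1.07 times Pcdh18, and with metformin the ratio was 0.385, 0.399 and 0.359. Of the other delta-2 genes, Pcdh8 and Pcdh17 had no read and Pcdh10 had 4, 5 and 4 reads against 12, 9 and 9. The delta-1 genes were silent or nearly so, Pcdh1 giving 1 to 5 reads a sample and Pcdh7, Pcdh9 and Pcdh11x none.

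Start regions are shown for Cdh26, the riser with the largest ratio, and for Pcdh18 and Pcdh19, the delta-2 pair that moved in opposite directions. They differ in CpG content, and the 250 bases before the RefSeq start of each (GRCm38.p6, read along the gene) are printed for that contrast, with every CG in capitals. They are chr2:178430265-178430514 (plus strand) for Cdh26, chr3:49757317-49757566 (minus strand) for Pcdh18 and chrX:133688994-133689243 (minus strand) for Pcdh19.
Cdh26: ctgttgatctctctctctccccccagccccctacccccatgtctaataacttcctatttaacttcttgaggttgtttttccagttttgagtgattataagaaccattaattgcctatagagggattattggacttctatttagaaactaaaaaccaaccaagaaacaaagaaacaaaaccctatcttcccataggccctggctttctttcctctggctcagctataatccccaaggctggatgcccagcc
Pcdh18: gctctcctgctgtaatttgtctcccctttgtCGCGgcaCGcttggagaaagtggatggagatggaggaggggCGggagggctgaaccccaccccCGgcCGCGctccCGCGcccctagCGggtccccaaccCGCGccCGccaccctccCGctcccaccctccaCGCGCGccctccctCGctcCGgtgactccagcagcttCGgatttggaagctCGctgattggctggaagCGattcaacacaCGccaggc
Pcdh19: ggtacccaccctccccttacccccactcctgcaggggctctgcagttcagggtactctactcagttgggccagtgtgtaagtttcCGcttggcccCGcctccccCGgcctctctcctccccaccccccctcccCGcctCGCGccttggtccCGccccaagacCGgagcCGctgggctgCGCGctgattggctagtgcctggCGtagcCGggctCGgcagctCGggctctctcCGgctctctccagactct
The Cdh26 window holds 0 CG dinucleotides at 42.8% GC, the Pcdh18 window 23 at 68.0% GC and the Pcdh19 window 16 at 69.2% GC. Over the 32851 RefSeq windows of this length the median was 6, and 7.87% held none. At least 16 stood in 25.4% of the windows and at least 23 in 13.3%. The letters GGGCGG, read on either strand and overlapping 1 CG, occur 1 time each in the Pcdh18 and Pcdh19 windows and not in that of Cdh26, and 32.7% of all windows hold them. Pcdh18 and Pcdh19, which changed in opposite directions, both have CG-rich windows. These counts describe letters and say nothing of the factors that bind there.

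The clustered protocadherins made up 57 of the 92 genes, and 14 of them passed the limit, of which 4 were called higher and 0 lower. No clustered gene fell at an unadjusted p under 0.05 by limma-trend (0 of 14) or at an adjusted p under 0.05 by voom (0 of 14), while Pcdhb22 was lower at an unadjusted p of 0.0308 by voom (limma; adjusted p = 0.0959). Over all tested genes 13.2% were called higher and 9.28% lower by limma-trend, and 13.8% and 9.98% by voom. A count of 0 lower among 14 lies near those shares. The summed FPKM of the clustered genes was 36.8, 34.0 and 36.6 in osteogenic medium and 50.1, 51.2 and 47.8 with metformin, with no overlap, or 35.8 ± 1.58 and 49.7 ± 1.75 FPKM (SD, n = 3). As these genes are known from neurons, the neuron markers were read too. Tubb3 rose from 3.53 ± 0.437 to 10.4 ± 0.573 FPKM and Syn1 from 4.65 ± 0.736 to 7.15 ± 0.726 FPKM (limma-trend, adjusted p = 0.000274 and 0.0241), though Syn1 lost its call without any one of the metformin samples or osteogenic medium replicate 3 (adjusted p up to 0.103). Snap25 had no read and Rbfox3 was at most 0.0175 FPKM in any sample. The part of those marker levels in the protocadherin values was not tested.

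In the alpha array, 1 of 14 genes, Pcdhac2, was read above the limit, and it held 94.0% to 99.0% of the summed alpha FPKM in each sample. Pcdhac2 (chr18:37143503-37187657) encodes a C-type isoform, the kind that neurons express steadily rather than by chance choice. It was at 3.08, 2.38 and 3.36 FPKM in osteogenic medium and at 5.75, 6.16 and 5.73 FPKM with metformin, so the treated samples lay well above the controls. The means were 2.94 ± 0.505 and 5.88 ± 0.241 FPKM (SD, n = 3), a log2 fold change of 0.81 ± 0.11 (SE; limma-trend, adjusted p = 0.0034), and the call held in all 6 fits without a sample. Among the alternate alpha genes Pcdha12 gave 12, 0 and 2 reads against 10, 13 and 12, and 7 of the 14 alpha genes had no read at all.

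In the gamma array, the C-type gene Pcdhgc3 and the A-type gene Pcdhga3 passed the limit among 21 genes. Pcdhgc3 (chr18:37806364-37841873) was the highest clustered gene, at 9.93, 13.6 and 15.5 FPKM in osteogenic medium and at 16.8, 18.6 and 16.9 FPKM with metformin. The groups did not overlap, and osteogenic medium replicate 1 was lowest. Its log2 fold change of 0.42 ± 0.16 (SE) did not pass (limma-trend, adjusted p = 0.107), but passed at 0.25 without that replicate (adjusted p = 0.0425) and at 0.36 with the GC correction (adjusted p = 0.0185). Pcdhga3 (chr18:37674307-37841873), which encodes an isoform of the variable kind, was at 4.99, 3.74 and 4.44 FPKM against 7.51, 6.70 and 5.94 FPKM. Its means of 4.39 ± 0.628 and 6.71 ± 0.784 FPKM (SD, n = 3) did not overlap and gave a log2 fold change of 0.52 ± 0.12 (SE; limma-trend, adjusted p = 0.0254), a call that 2 of the 6 fits without a sample kept. Without metformin replicate 1, metformin replicate 2, osteogenic medium replicate 2 or osteogenic medium replicate 3 the adjusted p was 0.107, 0.0974, 0.0716 and 0.0559. Other gamma genes were low, Pcdhgc5 with 39, 59 and 82 reads against 62, 59 and 42 and Pcdhga1 with 4, 4 and 6 reads against 14, 11 and 16.

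Alpha and gamma genes share their constant exons, and in the annotation each of the 14 alpha genes shares 38.9% to 91.4% of its exon bases with another gene of the same strand and each of the 21 gamma genes 31.5% to 66.8%. The shares were 48.6% for Pcdhac2, 38.5% for Pcdhgc3 and 44.9% for Pcdhga3, and that of Pcdhgc3 is 66.9% with genes of the opposite strand counted too. How reads in the shared exons were divided is not given in the sources used here, and 4 annotated genes whose exons overlap those of alpha and gamma genes, Gm37013, Gm37388, Gm38182 and Gm42416, had 0 reads in all samples. Levels of single alpha and gamma isoforms are therefore uncertain. The summed gamma FPKM, less exposed to that division, was 15.6, 18.1 and 21.03 in osteogenic medium and 25.3, 26.1 and 23.6 with metformin. The antisense gene BC037039, which overlaps Pcdhgc3, had 20, 24 and 21 reads against 21, 6 and 8, few beside the reads of Pcdhgc3, and without a stated strand setting the reads of both cannot be told apart.

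The beta genes are mostly of a single exon and have no constant exons, and 3 of the 22 share any exon base with another gene. Of the 22, 11 passed the limit. By limma-trend 2 of the 11 (18.2%) were called higher and 0 lower, beside 13.2% and 9.28% of all tested genes. At an unadjusted p under 0.05 by limma-trend 3 were higher and 0 lower. Pcdhb5 (chr18:37320381-37323915) was at 1.84, 1.27 and 1.24 FPKM in osteogenic medium and at 2.64, 2.54 and 2.47 FPKM with metformin, with no overlap. The log2 fold change was 0.54 ± 0.12 (SE; limma-trend, adjusted p = 0.0185), and 0.84 by voom on the reads (adjusted p = 0.0129). The limma-trend call was lost without metformin replicate 1, 2 or 3 or osteogenic medium replicate 2, at adjusted p values of 0.0827, 0.077, 0.0677 and 0.0629. Pcdhb9 (chr18:37400855-37403909) was at 1.22, 1.15 and 0.966 FPKM against 2.10, 2.07 and 1.80 FPKM, again with no overlap. Its log2 fold change was 0.50 ± 0.097 (SE; limma-trend, adjusted p = 0.0124), and the adjusted p was 0.0677 without metformin replicate 1 and 0.0653 without metformin replicate 2.

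Another 3 beta genes were called higher once osteogenic medium replicate 1 was left out, in each of which that library was the highest control. Over all tested genes the same omission raised the number called higher from 1670 to 2969 and the number called lower from 1177 to 2590. Pcdhb16, the highest beta gene, was at 3.10, 2.03 and 1.73 FPKM in osteogenic medium and at 3.05, 3.25 and 3.41 FPKM with metformin, with a log2 fold change of 0.39 (limma-trend, adjusted p = 0.129) that became 0.56 without the replicate (adjusted p = 0.00294). Pcdhb14 was at 1.96, 1.45 and 1.19 FPKM against 1.895, 2.10 and 2.04 FPKM, with 0.26 (adjusted p = 0.195) becoming 0.38 (limma-trend, adjusted p = 0.0173). Pcdhb15 was at 1.39, 0.919 and 0.763 FPKM against 1.71, 1.62 and 1.23 FPKM, with 0.32 (adjusted p = 0.168) becoming 0.45 (limma-trend, adjusted p = 0.0244). In each of the 3 the groups overlapped through osteogenic medium replicate 1 alone.

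The other 6 tested beta genes lie next to each other at the end of the array and were not called. Pcdhb17 and Pcdhb20 overlapped between groups, with log2 fold changes of 0.0032 and -0.050. Pcdhb18 was at 1.21, 0.898 and 0.767 FPKM in the controls and at 0.670, 0.783 and 0.570 FPKM with metformin, a log2 fold change of -0.22 (limma-trend, adjusted p = 0.243). Pcdhb22 was at 0.961, 0.685 and 0.893 FPKM against 0.450, 0.653 and 0.583 FPKM, each treated sample below each control, with a log2 fold change of -0.24 (limma-trend, adjusted p = 0.176). Pcdhb19 and Pcdhb21 had log2 fold changes of 0.13 and -0.098 with overlapping groups. Pcdhb21 and Pcdhb22 share 455 identical bases, so reads there could have gone to either.

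Set in chromosomal order, the beta genes with a mean of at least 10 reads fell into an order that was noticed after the values were seen and is given without a test. The 10 such genes before Pcdhb17 had voom log2 fold changes above 0, from 0.13 to 1.00 with a median of 0.56. Of these only Pcdhb5 and Pcdhb9 were called, and Pcdhb7 (0.25 ± 0.33) and Pcdhb11 (0.13 ± 0.28) lay within 1 SE of 0. The 6 from Pcdhb17 to Pcdhb22 had 4 values below 0 and 2 above, from -0.58 to 0.37 with a median of -0.14. The summed FPKM of the first 10 was 10.8, 8.44 and 7.05 in osteogenic medium and 13.4, 13.3 and 12.9 with metformin, and did not overlap. That of the last 6 was 6.63, 4.79 and 4.97 against 4.87, 4.86 and 4.76, and did overlap. The split at Pcdhb17 was placed by the values of these same genes, so the sums give it no separate support. GC content ranged from 39.1% to 49.0% in the first genes and from 41.2% to 45.0% in the last. Pcdhb1, the first gene of the array, had no read in any sample.

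**Figure D4:**
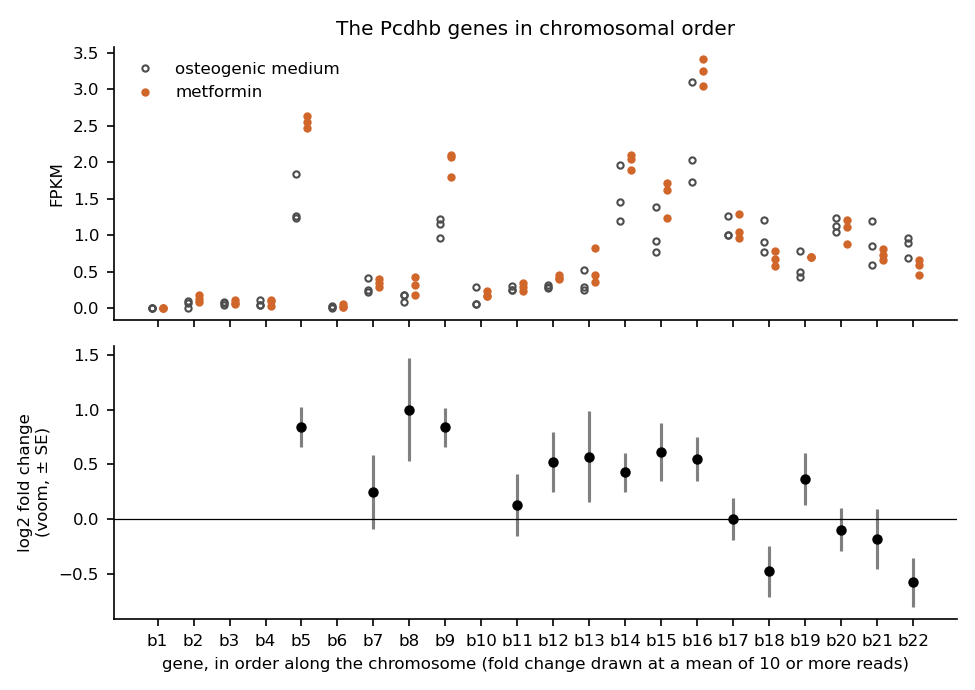
The 22 Pcdhb genes in chromosomal order, with FPKM of each of the 3 samples per group above and the voom log2 fold change with 1 standard error below, drawn for the 16 genes with a mean of at least 10 reads. The fold changes lie above 0 for the 10 such genes before Pcdhb17 and run from -0.58 to 0.37 from Pcdhb17 on.

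Of the 71 members under the expression limit, 28 had no read in any sample and 43 had some. Pcdhb19 at 0.633 and Cdh26 at 0.619 mean FPKM were the lowest above the limit, and Pcdhb13 at 0.452 and Pcdhgc5 at 0.374 the highest below it. A mean of at least 10 reads was reached by 6 of the 43, Pcdhb13, Pcdhgc5, Pcdhb12, Pcdhb7, Pcdhb11 and Pcdhb8. None of the 6 was called by voom on the reads (0 at an unadjusted p under 0.05, adjusted p 0.165 to 0.784), where 13.8% of 13403 genes were called higher and 9.98% lower, and 0 of the 43 were called by limma-trend with no filter. Pcdhb8 had 11, 13 and 6 reads in osteogenic medium and 12, 24 and 29 with metformin, and Pcdhb12 had 16, 17 and 19 against 24, 27 and 27. In Pcdhb12 each treated sample lay above each control before scaling by depth, and an antisense gene over 63.5% of its exon bases, Gm37446, had no read. Pcdhb13 had 17, 41 and 21 reads against 61, 29 and 33, with overlap. Pcdhb7 had 16, 30 and 15 against 20, 26 and 27, Pcdhb11 had 24, 23 and 21 against 30, 28 and 20, and Pcdhb10 had 15, 3 and 3 against 13, 10 and 9. The other members with a mean under 10 reads gave at most 18 reads in a sample and were not tested by voom. The symbol Pcdha11 stands for 2 of the genes in the table.

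The members with no read, which allows up to 3 reads in a library, were spread over the family. They were the type II genes Cdh6, Cdh7, Cdh8, Cdh9, Cdh12, Cdh18, Cdh19 and Cdh20, the type I gene Cdh15, and Cdh13 and Cdh16. Among the solo protocadherins they were Pcdh7, Pcdh8, Pcdh9, Pcdh11x, Pcdh15, Pcdh17 and Pcdh20. In the clusters they were Pcdha1, Pcdha2, Pcdha4, Pcdha6, Pcdha7, Pcdha8, Pcdhac1, Pcdhb1, Pcdhga6 and Pcdhga10. For the alpha and gamma genes among them the limit of 3 reads covers only reads that were assigned to them. Exons of other genes on either strand cover 93.0% of the exon bases of Pcdha4 and 100% of those of Pcdhga10. How reads there were assigned is not given in the sources used here.

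The proteins that cadherins work with were read from lists of 84 genes, of which 58 passed the limit. By limma-trend 14 of these (24.1%) were called higher and 2 (3.45%) lower, beside 13.2% and 9.28% of all tested genes, and with the GC correction 18 were higher and 9 lower. The 14 include Pcsk6 and Cdhr1, which passed the limit only through the metformin samples, where they were high. The 24.1% therefore rests in part on the filter. Catenins join the classical tail to actin. Of 9, 6 were tested, with 3 called higher and 1 lower. Ctnnb1, the beta-catenin that also carries Wnt signals, was at 238, 203 and 204 FPKM in osteogenic medium and at 157, 166 and 159 FPKM with metformin, so it was lower in every treated sample, with a log2 fold change of -0.41 ± 0.10 (SE; limma-trend, adjusted p = 0.0275). Ctnna1, the alpha-catenin that binds actin, was at 56.8, 55.4 and 55.8 FPKM against 77.4, 80.5 and 74.7 FPKM, higher in every treated sample, with 0.46 ± 0.079 (SE; limma-trend, adjusted p = 0.00764). Pkp4, an armadillo protein of junctions, rose from 3.26 ± 0.248 to 8.77 ± 0.285 FPKM (limma-trend, adjusted p = 0.000206), and Ctnnd1, which holds cadherins at the membrane, from 3.61 ± 0.30 to 5.18 ± 0.167 FPKM (adjusted p = 0.0134). Ctnnb1 and Ctnnd1 lost the call without any one of the metformin samples (limma-trend, adjusted p up to 0.13 and 0.0767), Ctnna1 without metformin replicate 1 or 2 (up to 0.0562), and Pkp4 kept it in all 6 fits without a sample. Jup was not called. Arvcf, at 7.97 ± 2.26 and 4.80 ± 0.469 FPKM, was not called by limma-trend (-0.60, adjusted p = 0.0674) but was called lower by voom (adjusted p = 0.0467), with the GC correction (0.00189) and without osteogenic medium replicate 1 (0.00174).

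Of the 12 junction adaptors and nectins, 11 were tested and 2 were higher. The other, Nectin4, lay under the limit, with 33, 26 and 38 reads in osteogenic medium and 9, 5 and 14 with metformin, and was called lower by voom (-1.90, adjusted p = 0.0172). Vcl, the vinculin that strengthens junctions under force, went from 17.2 ± 2.89 to 40.3 ± 1.86 FPKM (log2 fold change 1.19, limma-trend, adjusted p = 0.0012). Ctnnbip1, which keeps beta-catenin from its transcription partners, went from 6.26 ± 0.97 to 10.6 ± 0.866 FPKM (0.69, adjusted p = 0.00822). Of the 10 genes of cadherin proteolysis 9 were tested, with Ncstn and Pcsk6 higher (0.44 and 0.67, adjusted p = 0.018 and 0.00447) and Psenen lower (-0.60, limma-trend, adjusted p = 0.0325). By voom 3 of the 9 were higher and 1 lower. Adam10, at 27.9 ± 6.78 and 40.3 ± 0.464 FPKM, was not called by limma-trend (0.54, adjusted p = 0.0588) but was higher by voom (adjusted p = 0.0395). Ncstn and Psenen both encode parts of gamma-secretase, and both lost the call without any one of the metformin samples or osteogenic medium replicate 2 (limma-trend, adjusted p up to 0.0877 for Ncstn and 0.124 for Psenen). Of the 6 repressors and switch factors 5 were tested and 1 was called. Snai2, a zinc-finger repressor of Cdh1, was at 18.5, 14.7 and 14.4 FPKM in osteogenic medium and at 36.9, 37.6 and 36.9 FPKM with metformin, a log2 fold change of 1.18 ± 0.11 (SE; limma-trend, adjusted p = 0.000633). Twist1, Snai1, Zeb1 and Zeb2 were not called with all 6 samples. Without osteogenic medium replicate 1, Snai1 was called lower (-0.62, limma-trend, adjusted p = 0.000728), Twist1 lower (-0.30, 0.00582) and Zeb2 higher (0.38, 0.0048).

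The 13 genes that act on clustered protocadherin promoters, which bind CTCF and cohesin and are methylated, were all tested. By limma-trend 3 were higher and 0 lower (4 and 1 at an unadjusted p under 0.05), beside 13.2% and 9.28% of all tested genes. By voom 4 were higher and 0 lower, beside 13.8% and 9.98% of all genes. Smchd1, not called by limma-trend (0.45, adjusted p = 0.0581), was higher by voom (adjusted p = 0.0363). The cohesin genes Rad21 and Smc1a went from 33.0 ± 1.51 to 52.3 ± 2.02 FPKM and from 15.96 ± 0.448 to 26.8 ± 0.225 FPKM (0.65 and 0.71, limma-trend, adjusted p = 0.0023 and 0.000948). Dnmt1, the maintenance DNA methyltransferase, went from 5.43 ± 0.415 to 17.7 ± 1.33 FPKM (1.54, adjusted p = 0.000143). With the GC correction these 3 genes kept their calls and Smchd1 was called higher (0.43, limma-trend, adjusted p = 0.00522). Setdb1 and Nipbl were then called lower (-0.31 and -0.49, limma-trend, adjusted p = 0.0159 and 0.0265). The other 24 cadherin superfamily genes outside the naming rule were mostly low, 5 being tested and 2 higher, Clstn1 from 46.0 ± 2.78 to 71.5 ± 3.12 FPKM (0.62, limma-trend, adjusted p = 0.00361) and Cdhr1 from 0.297 ± 0.0619 to 1.43 ± 0.205 FPKM (0.90, adjusted p = 0.00182). Like Pcsk6, at 0.222 ± 0.0195 and 0.951 ± 0.111 FPKM, Cdhr1 passed the limit only through the metformin samples. Fat1, the highest of the 24, was at 107 ± 14.7 and 125 ± 6.14 FPKM, levels like those of Cdh11, and was not called (limma-trend, adjusted p = 0.238). Of the 10 partners of protocadherins 9 were tested and Ptk2b, a focal adhesion kinase relative, was higher (0.52, limma-trend, adjusted p = 0.00676).

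**Figure D5:**
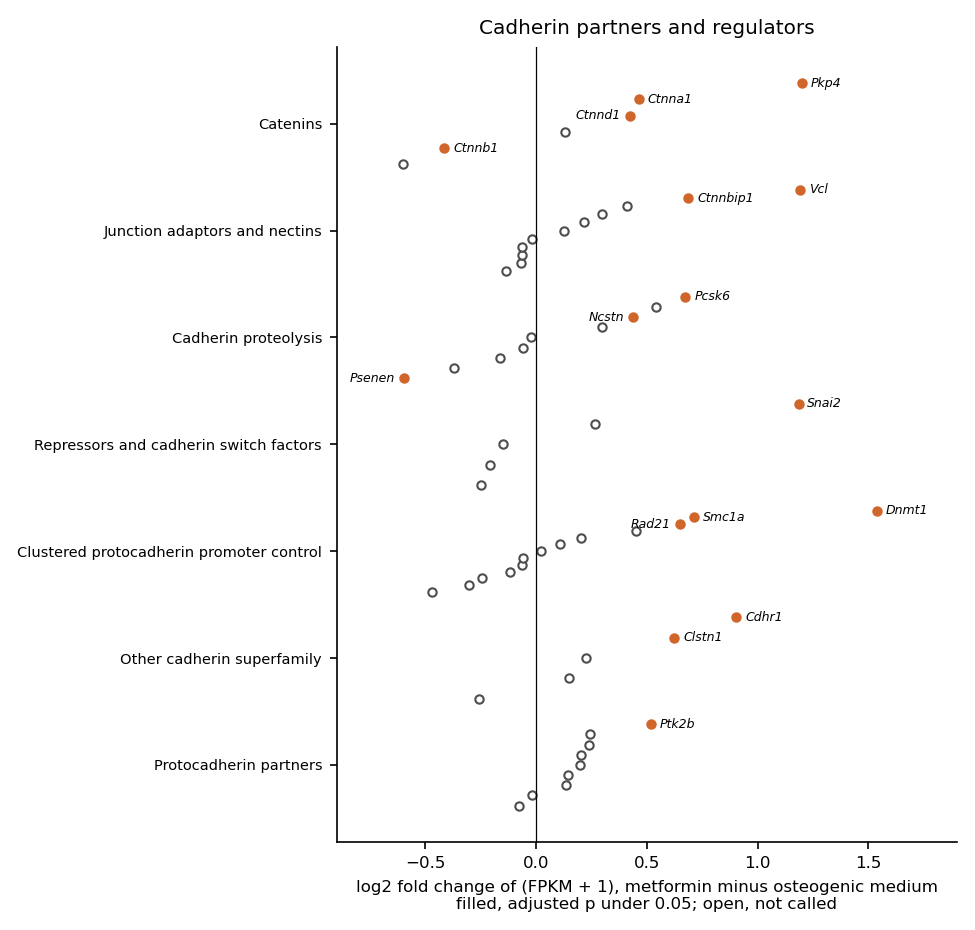
Log2 fold change of (FPKM + 1), metformin minus osteogenic medium, for the 58 tested genes of 7 lists, 1 point per gene, with filled and named points where the adjusted p was under 0.05. Of the named genes 14 lie above 0 and 2, Ctnnb1 and Psenen, below.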

How the data were processed

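RNA was sequenced from MC3T3-E1 cells with Illumina TruSeq libraries. The authors deposited FPKM values per gene, made by a sequencing service. Their aligner settings, counter, annotation and strand setting are not given in the sources used here. The submitters' processing notes name Bowtie 0.12.2 and the builds mm8 and mm9, but 53585 of the 54532 genes have the coordinates of GENCODE M21 (GRCm38), and so coordinates are given on that build.

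FPKM multiplied by gene length gave whole multiples of 1 step in each sample (tolerance 0.01 reads), and reads were recovered from these. Groups came from the treatment labels, which read control and metformin. That all samples were in osteogenic medium, the dose and the time came from the study's text. The main test was limma 3.58.1 (R 4.3.3) with a mean-variance trend on log2(FPKM + 1), a mean FPKM of at least 0.5 and no covariates. Members under that limit were tested by voom on recovered reads at a mean of at least 10 reads, with median-of-ratios scaling. The study's own DESeq2 test was not repeated. The fits were tested on simulated data. Transcripts were compared with BLAST 2.17.0 at 95% identity over at least 200 bases.

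All members above the limit are named. Below it, members with a mean of at least 10 reads in 1 group, Cdh1, Cdh3, Cdh5 and Cdh15, and those at 0 are named, and in the lists each called gene. The members and lists were chosen with earlier results of these data known. Alternatives were a pseudocount of 0.1, no filter, at least 10 reads in every sample, scaling by total reads, voom, a GC correction (spline with 5 degrees of freedom), a replicate block, the block with the GC correction, and leaving out each sample. RefSeq start windows matched 22 members.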

Additional observations from a re-analysis of the deposited data

How the results depend on the processing

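The 21 tested members gave 293 values under the alternatives, of which 256 kept their direction and their side of the threshold, 16 lost the call, 11 gained one and 10 changed sign. Cdh2, Cdh26, Pcdh18 and Pcdhac2 kept the call in all 6 fits without a sample. Without 1 sample, genes called higher ranged from 938 to 2969 (1670 with all samples) and lower from 495 to 2590 (1177). Both counts were lowest without metformin replicate 1 and highest without osteogenic medium replicate 1. Members called higher ranged from 4 to 11 and lower from 0 to 2, and list genes called higher from 11 to 22 and lower from 0 to 9. The GC correction gave 2433 genes, 2 members and 9 list genes called lower, and it moved the median of all genes by -0.054. With it Pcdhb17 turned to -0.052, also with the block, and to -0.010 with scaling by total reads. Without 1 sample, Cdh22 ranged from -0.10 to 0.24, Cdh24 from -0.24 to 0.026, Pcdhb17 from -0.063 to 0.061, Pcdhb20 from -0.099 to 0.016 and Pcdhb21 from -0.21 to 0.020. The median log2 fold change of the members was 0.13 at 10 reads in every sample, 0.019 with no filter, 0.40 with a pseudocount of 0.1 and 0.43 by voom, which follows from the genes included or the scale of low values. With no filter Pcdhga3 and Pcdhb5 lost their calls (limma-trend, adjusted p = 0.0611 and 0.0606). For the other changes the cause was not tested.

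Samples of the same replicate number did not deviate together over all genes (correlations -0.053, 0.00027 and -0.055). These correlations cannot show whether such samples were handled together, since other differences between samples enter them. Whether the numbers mark pairs is not given in the sources used here. A fit with the replicate number as a block gave 698 genes, 0 members and 0 list genes called lower, and with the GC correction as well 1888, 2 and 4. Under the block Pcdh19 had an adjusted p of 0.064 (limma-trend) and no other member changed its call.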
